A study of Mus musculus with 4 samples.

Results

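Clusters 1, 5 and 7 were the 3 chromatin clusters in which most eribulin-treated cells of the single-cell ATAC-seq (scATAC) run were found. Their members were taken by the authors' own cluster numbers: 6014 cells of cluster 1, 2886 of cluster 5 and 2637 of cluster 7, together 11537 of the 43782 cells of the study. The cells were of PB3, a cell line from a mouse mammary tumor, and all groups shared this line and its growth medium. Eribulin, a drug that blocks the growth of microtubules and is used against breast cancer, was given at 500 nM for 72 h followed by 48 h of recovery, in 4 rounds, while the other group was untreated. Each group was profiled as 1 scATAC library (run 1) and as 1 library of the ATAC part of a multiome assay on nuclei (run 3). The libraries describe a cultured line and not a tumor in the animal. The labels do not say whether both runs drew on 1 treated culture.

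In ATAC-seq the Tn5 transposase cuts DNA where chromatin is open, and the fragments between cuts carry a trace of nucleosomes. The nucleosome signal of a cell is the ratio of fragments as long as a nucleosome to shorter, nucleosome-free ones, so a low value means that a larger part of the fragments came from DNA without a nucleosome. Enrichment at transcription start sites (TSS enrichment) is the ratio of cuts at start sites to cuts in their flanks, and gene activity is a count of cuts or fragments assigned to genes in place of RNA. The cells also carried lentiviral barcodes, short DNA stretches that are inherited by daughter cells and mark a lineage. Single peaks and genes were not analysed here, so mammary or tumor markers could not be checked and the clusters are called by number.

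Clusters 1, 5 and 7 were almost wholly made of eribulin scATAC cells. Of the cluster 1 cells, 5986 (99.5%) came from that library, 19 from the eribulin multiome library and 9 from the untreated scATAC library. Cluster 5 held 2873 (99.5%), 9 and 4 cells of these libraries, and cluster 7 held 2621 (99.4%), 10 and 6. The 9583 untreated multiome cells gave 0 cells to each cluster, which by the limit of 3 counts allows a share of up to 0.0313% (exact upper limit 0.0385%). Together the clusters held 11480 of the 16724 eribulin scATAC cells, or 68.6% (67.9 to 69.4). They held 71.0% of the library's cut sites, 90693650 of 127710435. Intervals of shares are exact 95% binomial (Clopper-Pearson) intervals and cover counting error only. With 1 library per group there was no spread between replicates, no test between groups was made, and a cluster that is mostly 1 library cannot be told apart from a property of that library. Unless another library is named, the values below are those of the eribulin scATAC cells, and the comparison set is the other 5244 cells of the same library, which had the same treatment, run and protocol.

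Cluster 5 had the highest nucleosome signal of the 3 clusters and cluster 1 the lowest. The median was 0.724 in cluster 1 (quartiles 0.671 and 0.780), 0.754 in cluster 7 (0.694 and 0.815) and 0.811 in cluster 5 (0.757 and 0.869). The exact 95% intervals of these medians over cells, from 0.722 to 0.727, from 0.751 to 0.757 and from 0.808 to 0.815, did not meet. The cluster 5 median lay 0.0868 (11.98%) above that of cluster 1, and a random cluster 5 cell was higher than a random cluster 1 cell in 76.1% of pairs. Cluster 7 lay 0.0296 above cluster 1 and was the higher in 59.4% of pairs. The other eribulin cells, with a median of 0.764, lay between clusters 5 and 7. The order was a shift of whole distributions that still overlapped, since single cells ran from 0.378 to 1.37 in cluster 1, from 0.335 to 1.42 in cluster 5 and from 0.386 to 1.30 in cluster 7.

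All 3 clusters lay far below the untreated cells of the same run, whose median nucleosome signal was 1.07 (quartiles 0.985 and 1.16). Of the 3, cluster 5 reached nearest to the untreated range: 713 of its 2873 cells (24.8%, 23.2 to 26.4) were at or above 0.869, the 5th percentile of untreated scATAC cells. In cluster 7 286 cells (10.9%, 9.74 to 12.2) reached that value, and in cluster 1 361 cells (6.03%, 5.44 to 6.66). Above the untreated lower quartile the counts were 119 cells (4.14%) in cluster 5, 38 (1.45%) in cluster 7 and 55 (0.919%) in cluster 1. Cluster 5 was not alone in this. Cluster 11, another eribulin cluster, had a median of 0.794 and 25.5% of its cells at or above the 5th percentile, a share whose interval (23.2 to 27.9) contains that of cluster 5. Above the untreated lower quartile it had 6.42% of its cells (5.17 to 7.85), more than cluster 5 (3.44 to 4.94). Medians in the other frequent eribulin clusters were 0.743 in cluster 10, 0.725 in cluster 12 and 0.778 in cluster 13, so that cluster 1 and cluster 12 marked the low end and cluster 5 the high end among these 7 clusters. Signal levels differed between the protocols as well. The eribulin multiome library had a median of 0.668, and the untreated multiome library one of 0.907 (quartiles 0.816 and 1.01).

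**Figure D1:**
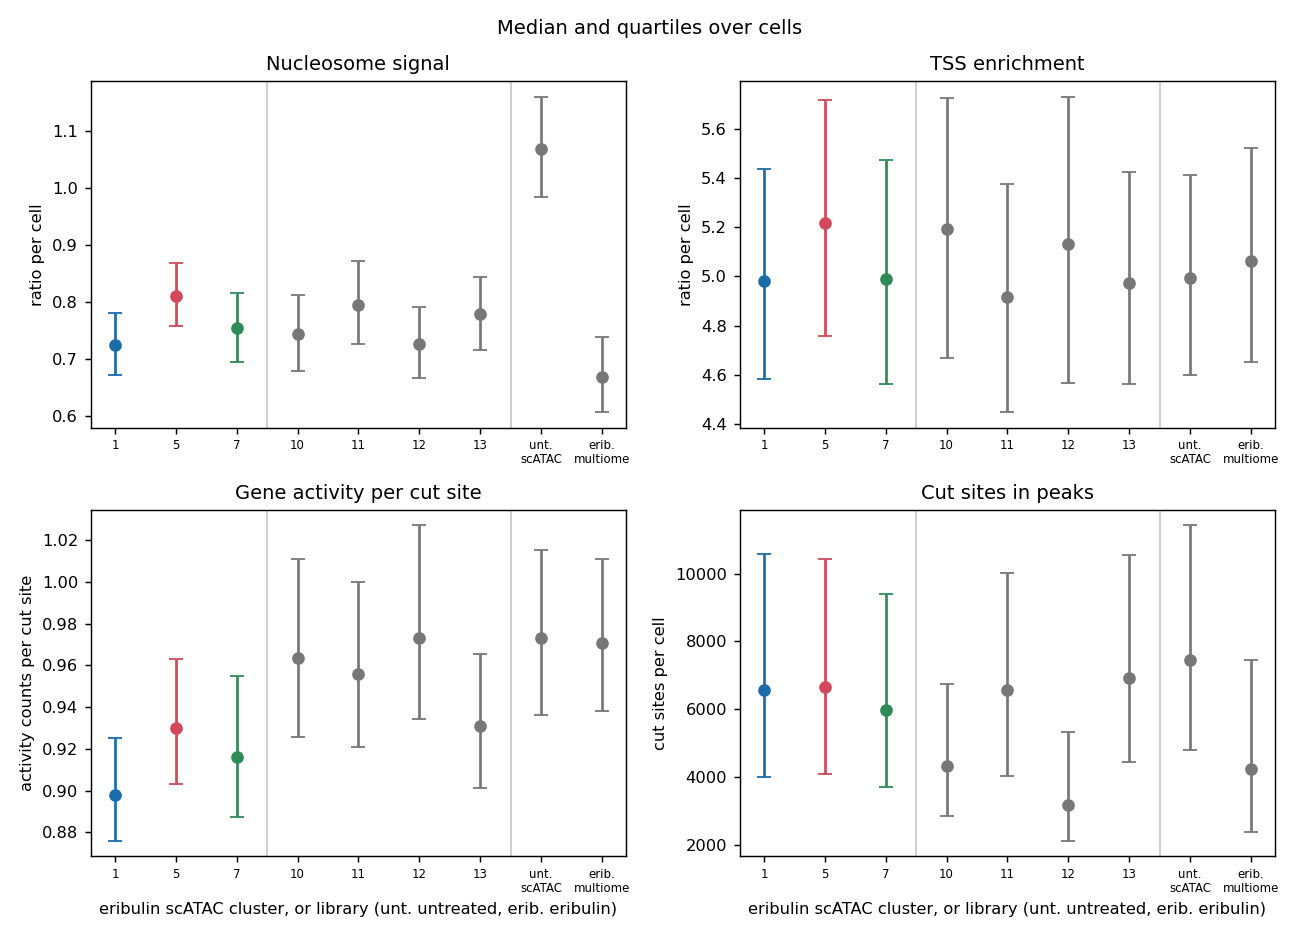
Median (point) and quartiles (bars) over cells of nucleosome signal, TSS enrichment, gene activity per cut site and cut sites in peaks, for clusters 1, 5 and 7, for the 4 other clusters with at least 5% of the eribulin scATAC cells, and for the whole untreated scATAC and eribulin multiome libraries. Cluster 5 stands above clusters 1 and 7 in nucleosome signal (0.811 against 0.724 and 0.754) and in TSS enrichment. In gene activity per cut site clusters 1 and 7 lie lowest, and cluster 5 (0.930) is level with cluster 13 (0.931).

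The clusters differed little in depth. The median number of cut sites in peaks per cell was 6562.5 in cluster 1, 6639 in cluster 5 and 5970 in cluster 7, against 5182.5 in the other eribulin cells. The quartiles ran from 3999 to 10568.8, from 4069 to 10426 and from 3712 to 9407 in clusters 1, 5 and 7. A cluster 5 cell was deeper than a cluster 1 cell in 50.1% of pairs, so depth did not separate them. The number of peaks detected per cell followed, with medians of 5912, 5906 and 5407 against 4728. Very deep cells, above 20000 cut sites, made up 4.68% of cluster 1, 3.48% of cluster 5 and 3.09% of cluster 7, and the deepest cells had 63586, 38586 and 45886 cut sites.

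The gap in nucleosome signal between clusters 5 and 1 was present at every depth. Among cells with 1000 to 2000 cut sites the medians were 0.824 in cluster 5 and 0.740 in cluster 1, and among cells with 2000 to 4000 they were 0.839 and 0.727. At 4000 to 8000 cut sites cluster 5 had 0.813 and cluster 1 0.720, at 8000 to 16000 0.802 and 0.722, and above 16000 0.792 and 0.731. Cluster 5 thus came down with depth beyond 4000 cut sites while cluster 1 hardly moved, with rank correlations (Spearman's rho across cells) of cut sites and nucleosome signal of -0.148 over 2873 cells and -0.0242 over 5986 cells. The points of these correlations share 1 library. Cluster 7 was between the other 2 in each range, from 0.742 in the shallowest cells to 0.760 at 2000 to 4000 cut sites. In the shallowest range it lay only 0.0019 above cluster 1.

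**Figure D2:**
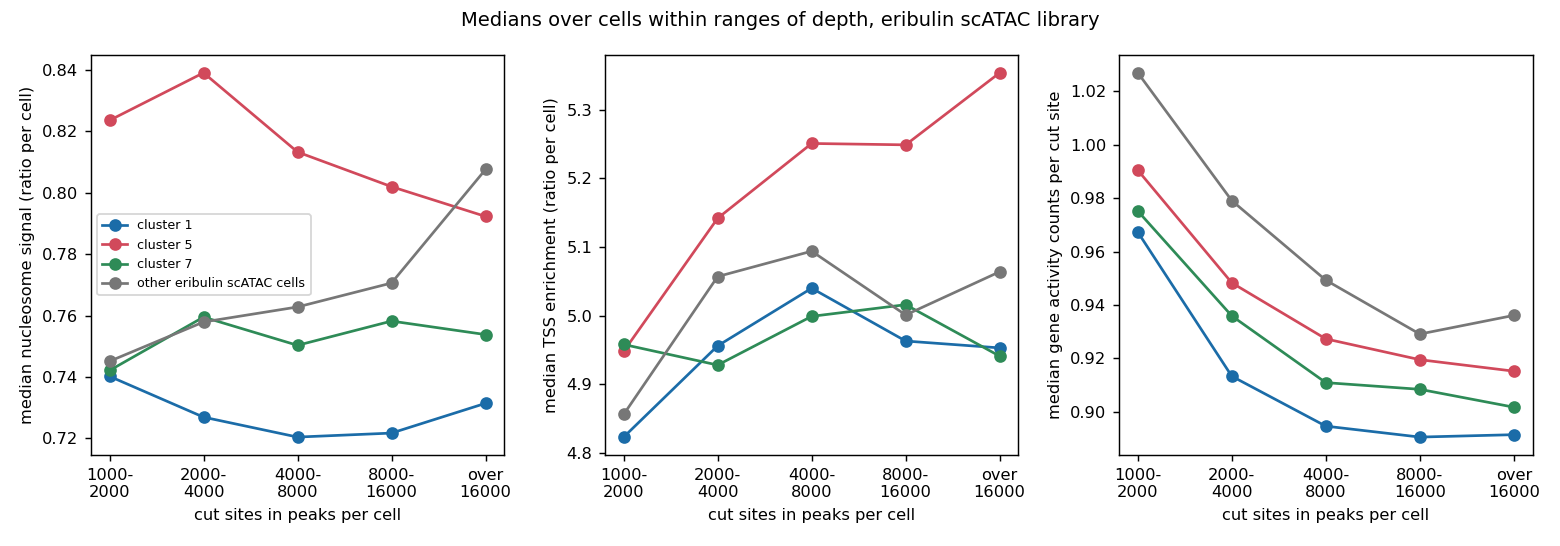
Median nucleosome signal, TSS enrichment and gene activity per cut site (vertical axes) in 5 ranges of cut sites in peaks per cell (horizontal axis), for clusters 1, 5 and 7 and the other eribulin scATAC cells. Cluster 5 lies above clusters 1 and 7 in nucleosome signal in all 5 ranges, and the 3 clusters lie below the other cells in gene activity per cut site in all 5.

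Of the 3 clusters, TSS enrichment was also highest in cluster 5, but by a smaller margin relative to the spread. Its median was 5.22 (quartiles 4.76 and 5.72), against 4.98 (4.58 and 5.44) in cluster 1, 4.99 (4.56 and 5.47) in cluster 7 and 5.04 in the other eribulin cells. Cluster 10 shared the high value, with a median of 5.19 whose exact 95% interval (5.14 to 5.23) overlapped that of cluster 5 (5.18 to 5.26), and cluster 12 had 5.13. A cluster 5 cell was above a cluster 1 cell in 59.1% of pairs, whereas clusters 7 and 1 were not separated (50.0%). In the shallowest range cluster 7 (4.96) and cluster 5 (4.95) were alike in this ratio, and in the 4 deeper ranges cluster 5 was the highest. The higher nucleosome signal of cluster 5 therefore did not go with lower enrichment at start sites. Within cluster 5 the rank correlation between the 2 ratios was -0.0551 over 2873 cells of 1 library.

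Gene activity per cut site was lower in clusters 1, 5 and 7 than in most other eribulin cells. The ratio of a cell's gene activity total to its cut sites in peaks had a median of 0.898 (quartiles 0.876 and 0.925) in cluster 1, 0.916 (0.887 and 0.955) in cluster 7 and 0.930 (0.903 and 0.963) in cluster 5. The other eribulin cells had 0.957 (0.919 and 1.005), with cluster 13 lowest among their frequent clusters at 0.931, untreated scATAC cells 0.973 and eribulin multiome cells 0.971. A cluster 1 cell was above a cell of the comparison set in 21.8% of pairs, a cluster 7 cell in 31.2% and a cluster 5 cell in 36.8%. The ratio fell with depth in every set, from 0.967 to 0.891 in cluster 1, from 0.991 to 0.915 in cluster 5 and from 0.975 to 0.902 in cluster 7 between the shallowest and deepest ranges. In each range all 3 clusters lay below the other cells, in the order 1, 7, 5. Both counts come from the same reads, and the sources used here do not say how activity was assigned to genes. A low ratio is thus only a statement that fewer counts fell to genes per cut in peaks. In totals the clusters were not poor in gene activity, with medians of 5913.5 in cluster 1, 6228 in cluster 5 and 5488 in cluster 7 against 4983.5, and with 4099.5, 4282 and 3882 genes detected against 3628.5.

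On the authors' UMAP map, clusters 1 and 5 shared an upper arc and cluster 7 formed a lower one. The median position on axes 1 and 2 was -1.27 and 7.02 for cluster 1, -1.90 and 6.79 for cluster 5, and -1.80 and 3.26 for cluster 7. Cluster numbers and map were made from the same peak components, so that position is a description and no separate evidence that the clusters differ. Cluster 1 was drawn out along a thin arc, whereas cluster 5 lay mostly over and on both sides of the left part of that arc.

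Position along axis 1 followed depth in all 3 clusters. Spearman's rho between cut sites and axis 1 was 0.836 over 5986 cells in cluster 1, 0.656 over 2873 in cluster 5 and 0.791 over 2621 in cluster 7. In cluster 1 the median rose from 2692 cut sites below -3 on this axis to 15913 above 2, in cluster 5 from 3200 to 17179, and in cluster 7 from 2433 to 19194. Cells at the left end of each arc were thus the shallow ones and cells at the right end the deep ones. In cluster 0, where 6367 eribulin multiome cells lay, rho was 0.0950 with axis 1 and 0.586 with axis 2. Nucleosome signal hardly changed along the cluster 1 arc, with medians between 0.711 and 0.734 in 7 segments of axis 1. The cluster 5 median was 0.830 below -3 and 0.782 between 1 and 2. In cluster 7 the medians of the segments lay between 0.722 and 0.766.

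Cluster 5 was less uniform along axis 1 in TSS enrichment than the other clusters. Its median was 5.01 below -3, rose to 5.52 between -1 and 0 (590 cells), and was 4.65 between 1 and 2 (115 cells). Over the same segments cluster 1 stayed between 4.86 and 5.06 and cluster 7 between 4.80 and 5.05. In the segment with the highest TSS enrichment of cluster 5, between -1 and 0, the median depth was 9416.5 cut sites. Its cells farther right, on the thin part of the arc, were deeper still and included the lowest segment.

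**Figure D3:**
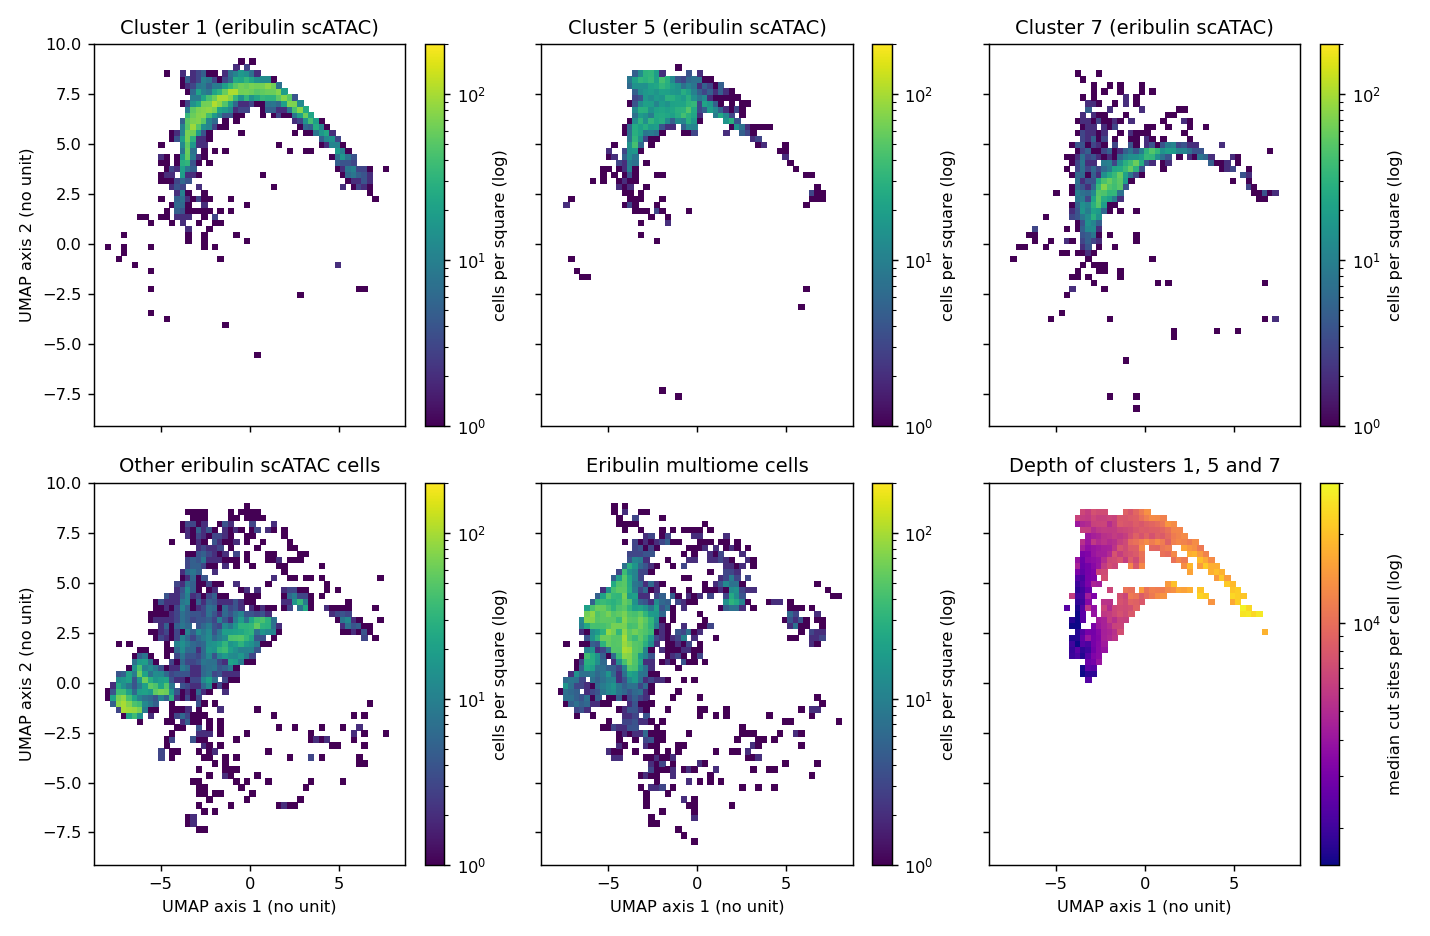
Position on the authors' 2 UMAP axes (no unit) of the eribulin scATAC cells of clusters 1, 5 and 7, of the remaining cells of that library, and of eribulin multiome cells, coloured by cells per map square on a log scale, and the median cut sites per cell of squares with at least 5 cells of clusters 1, 5 and 7. Clusters 1 and 5 share the upper arc, with medians of 7.02 and 6.79 on axis 2, cluster 7 lies below at 3.26, and depth rises along axis 1.

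Clusters 1 and 5 were mixed on the map, and cluster 7 stood apart from both. Among the 30 nearest neighbours of a cluster 1 cell a mean of 71.6% were cluster 1 cells, 17.2% cluster 5 cells and 4.94% cluster 0 cells. A cluster 5 cell had 51.3% of its neighbours in cluster 5 and 36.4% in cluster 1. A cluster 7 cell had 61.8% in cluster 7, 14.99% in cluster 0, 5.76% in cluster 13 and 4.85% in cluster 11, but only 3.92% in cluster 1 and 2.46% in cluster 5. The own cluster was the most frequent among the neighbours of 87.8% (87.0 to 88.6) of cluster 1 cells, 72.0% (70.2 to 73.7) of cluster 7 cells and 53.0% (51.2 to 54.9) of cluster 5 cells. Cluster 7 also bordered most on the multiome cells, with 17.3% of its neighbours from the eribulin multiome library.

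Where clusters 1 and 5 mixed, their nucleosome signals did not converge. Cluster 5 cells with 0 neighbours in cluster 1 had a median of 0.816 (247 cells), and those with over 50% of their neighbours in cluster 1 had 0.820 (953 cells). Cluster 1 cells with 0 neighbours in cluster 5 had 0.722 (895 cells), and those with over 50% in cluster 5 had 0.735 (308 cells). For 1878 of the 2873 cluster 5 cells at least 5 of the neighbours were in cluster 1, and each could be set against the median of these. Nucleosome signal was higher in the cluster 5 cell in 82.5% of cases, with a median difference of 0.0840, close to the 0.0868 between the whole clusters. TSS enrichment was higher in 63.8% of cases (median difference 0.281), gene activity per cut site in 70.7% (0.0206), and cut sites in 57.99% (467 cut sites). Side by side, the differences in nucleosome signal and TSS enrichment were thus about as large as between the whole clusters, that in gene activity per cut site was smaller (0.0206 against 0.0318), and the cluster 5 cells were deeper, which the whole clusters were not (76.5 cut sites).

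**Figure D4:**
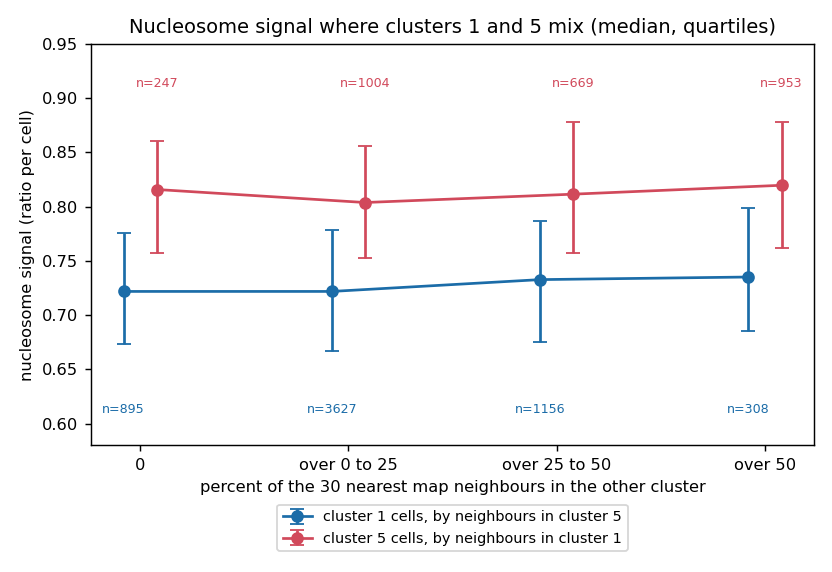
Nucleosome signal (median and quartiles over cells, vertical axis) of cluster 1 cells by the percent of their 30 nearest map neighbours in cluster 5, and of cluster 5 cells by the percent in cluster 1 (horizontal axis, 4 classes, with cell numbers). Cluster 5 stays between 0.804 and 0.820 and cluster 1 between 0.722 and 0.735 in all 4 classes.

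Few cluster 7 cells bordered on clusters 11 and 13, the 2 clusters for which this was computed, and they had lower nucleosome signal and gene activity per cut site than those neighbours. For 116 cluster 7 cells with at least 5 neighbours in cluster 11, nucleosome signal was higher in the cluster 7 cell in 19.0% of cases, with a median difference of -0.0998. Gene activity per cut site was higher in 8.62% of them, with a median difference of -0.0682. Against cluster 13, for 195 cluster 7 cells, nucleosome signal was higher in 40.5% of cases, with a median difference of -0.0267, and gene activity per cut site in 37.4%, with a median difference of -0.0206. The same cluster 7 cells were also deeper, by a median of 966 cut sites than their cluster 11 neighbours and of 677 than their cluster 13 neighbours. Their TSS enrichment was higher by 0.0619 and 0.143. The part of depth in the lower activity ratio was not tested.

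Many eribulin multiome cells had clusters 1, 5 and 7 among their nearest scATAC cells on the map without carrying these cluster numbers. Of 8114 eribulin multiome cells, 3644 (44.9%) had over 50% of their 30 nearest eribulin scATAC cells in the 3 clusters. No limit on distance was set, and the 3 clusters made up 68.6% of the eribulin scATAC cells. Seen from the other side, eribulin multiome cells were 5.33%, 5.80% and 17.3% of the neighbours of cluster 1, 5 and 7 cells. Of the 3644 cells, 3226 (88.5%) were in cluster 0, against 78.5% of the whole eribulin multiome library. Another 26 (0.714%) were in cluster 1, 5 or 7. All cluster 0 cells of the eribulin multiome library were also sorted by the most frequent cluster among these 30 scATAC neighbours. This rule differs from the 50% limit. Those sorted to cluster 1 (1683 cells), cluster 5 (558) and cluster 7 (1504) had median nucleosome signals of 0.668, 0.671 and 0.674. Their median gene activity per cut site was 0.969, 0.959 and 0.972. Clusters 1 and 5 mix on the map, and scATAC cells were not sorted by neighbours in this way. In the scATAC library, leaving out cells with most neighbours in another cluster left cluster 5 minus cluster 1 at 0.08315. What the cluster 0 medians mean for that gap was not tested. Protocol and run changed together between these libraries and cannot be told apart.

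The 57 member cells from other libraries had median nucleosome signals nearer to those of their own library than to those of their cluster. The 9 eribulin multiome cells of cluster 5 ran from 0.519 to 0.741 with a median of 0.649, and 9 of 9 lay below the lower quartile of the scATAC cells of the same cluster. The 19 in cluster 1 had a median of 0.6585 (0.513 to 1.02) and the 10 in cluster 7 had 0.605 (0.556 to 0.876). Untreated scATAC members had 1.04 (0.700 to 1.66, 9 cells) in cluster 1, 1.11 (1.05 to 1.13, 4 cells) in cluster 5 and 1.01 (0.791 to 1.28, 6 cells) in cluster 7. With neighbours of all libraries counted, over 50% were in the 3 clusters for 14 of the 38 multiome cells and for 4 of the 19 untreated cells. Among the nearest eribulin scATAC cells only, this held for 26 of the 38 multiome cells. Of the 11480 eribulin scATAC members, 155 (1.35%) had a 10x cell barcode that also occurred in the untreated scATAC library. In the whole eribulin scATAC library 215 of 16724 cells had one, so this was not particular to the members. No cell of the whole library had a 10x cell barcode that occurred in a multiome library. Without the shared ones the nucleosome signal of cluster 5 minus cluster 1 was 0.0867.

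Lineage barcodes were called in very few of these cells. Exactly 1 barcode was found in 35 of 5986 cluster 1 cells (0.585%, 0.408 to 0.812), in 14 of 2873 cluster 5 cells (0.487%, 0.267 to 0.816) and in 14 of 2621 cluster 7 cells (0.534%, 0.292 to 0.895). The intervals overlapped each other and that of the other eribulin cells, where 21 of 5244 cells had one (0.248 to 0.612%). Another 4 cells were called doublets, 1 in cluster 1 and 3 in cluster 7. All 63 singly called cells held 1 of 7 barcodes. The whole eribulin scATAC library held the same 7, and its 21 other called cells held 5 of them, so the set was not particular to these clusters. Each barcode has a short part of 14 bases, the linker TGGT and a long part of 30 bases. The sequences are shown because they are the only lineages called in the eribulin scATAC cells of these clusters, from 5′ to 3′ as listed by the authors, with the linker in capitals.
55-23349: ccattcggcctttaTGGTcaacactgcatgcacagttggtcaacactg
76-49517: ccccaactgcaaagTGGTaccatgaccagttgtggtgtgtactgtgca
39-41529: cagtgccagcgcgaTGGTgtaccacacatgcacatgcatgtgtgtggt
95-33662: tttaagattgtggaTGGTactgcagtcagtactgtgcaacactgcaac
6-93034: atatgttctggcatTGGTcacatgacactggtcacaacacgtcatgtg
29-49561: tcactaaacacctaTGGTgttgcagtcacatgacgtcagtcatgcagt
89-6288: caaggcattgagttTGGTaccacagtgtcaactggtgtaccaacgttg
The names give the number of the short part and of the long part. Any 2 of these barcodes differed at 27 to 42 of their 48 bases, so that a single misread base does not turn 1 into another.

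Barcodes 55-23349 and 76-49517 were the most frequent ones in the 3 clusters. Barcode 55-23349 was called in 13 cells of cluster 1, 6 of cluster 5 and 4 of cluster 7, and 76-49517 in 10, 6 and 1. Together they made up 12 of the 14 called cells of cluster 5 (85.7%, 57.2 to 98.2), 23 of the 35 of cluster 1 (65.7%, 47.8 to 80.9) and 5 of the 14 of cluster 7 (35.7%, 12.8 to 64.9). The intervals of clusters 5 and 7 overlap, and this difference was not tested. Among called cells at or above the library's median depth, which are fewer, the share was 77.8%, 68.4% and 22.2% in clusters 5, 1 and 7. With doublets in the denominator, which can only lower a share, it was 85.7%, 63.9% and 29.4%. In the other eribulin scATAC cells the pair made up 15 of 21 called cells (71.4%).

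The other 5 barcodes were called in 23 cells of the 3 clusters. Barcode 39-41529 was called in 6 cells of cluster 1 and 4 of cluster 7, and in 0 of the 14 called cells of cluster 5. Barcode 95-33662 was called in 3 cells of cluster 1 and 2 of cluster 5, barcode 6-93034 in 1 cell of cluster 1 and 3 of cluster 7, and barcode 29-49561 in 2 and 1. Barcode 89-6288 was called in 1 cell, in cluster 7. So 5 of the 7 barcodes were present in both cluster 1 and cluster 7, and each of the 3 barcodes of cluster 5 was also in cluster 1. In all, 6 of the 7 were called in more than 1 of the clusters, and the seventh in a single cell.

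In the multiome run the same lineages were found in cluster 0 and elsewhere. Of 146 eribulin multiome cells with 55-23349, 83.6% lay in cluster 0, and of 438 with 76-49517, 83.8%. Over all 8114 cells of that library the share of cluster 0 was 78.5%, and over its 1391 cells with a single barcode it was 63.0%. For the other barcodes it was 42.0% of 81 cells with 39-41529, 54.0% of 176 with 95-33662, 42.9% of 403 with 6-93034, 38.9% of 18 with 29-49561 and 76.2% of 21 with 89-6288. These differences were not tested. Barcode 6-93034, 29.0% of the singly called eribulin multiome cells, was 4 of the 63 in clusters 1, 5 and 7 (6.35%, 1.76 to 15.5) and 4 of 21 in the other eribulin scATAC cells (19.0%, 5.45 to 41.9). Multiome share and share in the 3 clusters also differed for 55-23349 (10.5% and 36.5%) and 39-41529 (5.82% and 15.9%). They were 31.5% and 27.0% for 76-49517, and 12.65% and 7.94% for 95-33662. For 29-49561 they were 1.29% and 4.76%, and for 89-6288 1.51% and 1.59%. The multiome shares rest on 1391 called of 8114 cells, and those of the 3 clusters on only 63 of 11480. In the other eribulin scATAC cells 55-23349 was 7 of 21 called cells (33.3%) and 39-41529 was 1 of 21 (4.76%). These shares were not tested against each other.

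Within a barcode, cluster 5 cells still had the higher median nucleosome signal. In the 13 cluster 1 cells with 55-23349 it ran from 0.643 to 0.819 with a median of 0.7065, in the 6 cluster 5 cells from 0.742 to 0.905 with a median of 0.783, and in the 4 cluster 7 cells from 0.642 to 0.7665 with a median of 0.711. The ranges of clusters 1 and 5 overlapped, but 11 of 13 cluster 1 cells lay below the cluster 5 median and 1 of 6 cluster 5 cells lay above the cluster 1 range. For 76-49517 the 10 cluster 1 cells ran from 0.598 to 0.857 with a median of 0.671, and the 6 cluster 5 cells from 0.441 to 0.8585 with a median of 0.782. The cell at 0.441 was the deepest of these 6, with 19605 cut sites. For 95-33662 the median was 0.662 in 3 cluster 1 cells and 0.777 in 2 cluster 5 cells. The order of clusters 5 and 1 was thus found in each of the 3 barcodes they shared, in 6, 6 and 2 cluster 5 cells. For 39-41529 the 6 cluster 1 cells had a median of 0.707 (0.501 to 1.06), and the 4 cluster 7 cells 0.775 (0.725 to 0.897). For 6-93034 the order was the other way, with 0.8205 in the 1 cluster 1 cell and 0.811 in 3 cluster 7 cells, and for 29-49561 the values were 0.7275 in 2 cluster 1 cells and 0.738 in 1 cluster 7 cell.

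**Figure D5:**
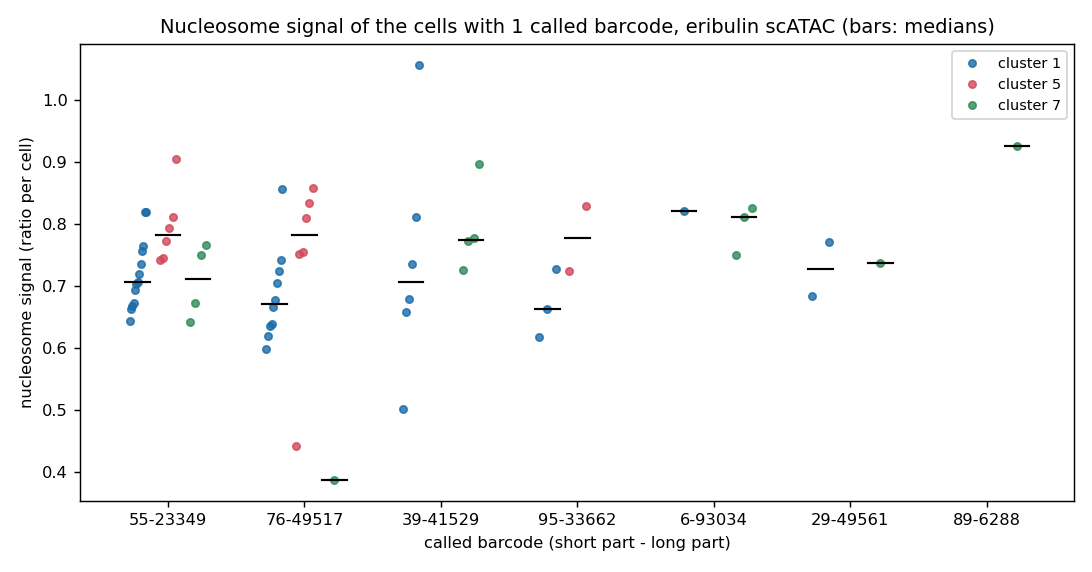
Nucleosome signal (vertical axis, ratio per cell) of each of the 63 eribulin scATAC cells of clusters 1, 5 and 7 with a single called barcode, by barcode (horizontal axis), with bars at the medians of each cluster. For 55-23349 and 76-49517 the cluster 5 medians (0.783 and 0.782) lie above those of cluster 1 (0.7065 and 0.671), with overlapping cells.

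The 1 cluster 7 cell with 76-49517 had a nucleosome signal of 0.3865, the lowest of all cluster 7 cells, and 1.61 activity counts per cut site. Barcodes were also called in 5 eribulin multiome members, 55-23349 in 4 cells of cluster 1 and 76-49517 in 1 cell of cluster 5, and in 1 untreated scATAC member of cluster 7, which held another barcode, 10-62135. Of the 7 barcodes, 39-41529 was the only one called in untreated scATAC cells, in 2 cells. In the untreated multiome library it was called in 40 cells, 55-23349 in 19, 6-93034 in 12 and 95-33662 in 6. Barcodes 76-49517 and 29-49561 were called there in 2 cells each, so these lineages were also called without the drug. Barcode 89-6288 was called in 0 cells of either untreated library.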

How the data were processed

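The members and the lists used here were chosen with earlier results of these data known. Per the series' design text, peak matrices were made with cellranger-atac 1.2.0 (run 1) and cellranger-arc 1.0.0 (run 3) on mm10 and analysed with Signac 1.1.1, and components 2 to 30 of the peaks gave the clusters and the map. Cells with under 1000 fragments in peaks or a TSS enrichment under 2 had been removed, per the same text. The computation of gene activity and the calling of barcodes are not described in the labels or headers. The deposited counts (cut sites in peaks, peaks, gene activity totals and genes per cell) are raw whole numbers. The deposited nucleosome signal and TSS enrichment are each a ratio per cell, and the positions on both UMAP axes are deposited as a score with no unit.

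From these, medians, quartiles, shares of cell pairs, neighbour shares among the 30 nearest cells on the map, and barcode shares were computed with scipy 1.17.1, numpy 2.4.6 and pandas 2.3.3 in Python 3.11.15, and drawn with matplotlib 3.10.9. Samples were grouped by their titles and treatment labels. The calculations were tested on simulated data. Intervals of medians are exact binomial ones from order statistics. They cover the sampling error of a median over cells of 1 library, and not the spread between libraries. No test between groups was run, since each had 1 library. Described by name are all barcodes called in clusters 1, 5 and 7, the other clusters with at least 5% of the eribulin scATAC cells, and the main eribulin cluster of the multiome run. Cells the authors called doublets were left out of the barcode comparisons only, and no doublet caller was run. Total cut sites per library were 127710435 and 84615925 (eribulin and untreated scATAC) and 49446970 and 61629245 (eribulin and untreated multiome). Alternatives were means, limits on depth and TSS enrichment, leaving out cells on mixed ground, other numbers of neighbours, libraries of equal size and barcode shares with doublets in the denominator or in deeper cells only. Differences within depth ranges, leaving out shared 10x barcodes, leaving out cluster 15 and the comparison with cluster 1 neighbours were chosen after seeing the data.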

Additional observations from a re-analysis of the deposited data

How the results depend on the processing

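No paired analysis was possible because each group had 1 library and no test was made. The order of clusters 1, 7 and 5 in nucleosome signal and in gene activity per cut site was the same under every alternative run for it. Leaving out cells with most neighbours in another cluster changed the cut sites of cluster 5 minus cluster 1 from 76.5 to 838.5, of cluster 7 minus cluster 1 from -592.5 to -158.5, and of the 3 clusters minus the other cells from 1244.5 to 1825. There, TSS enrichment of the 3 clusters minus the others was -0.0710, and gene activity per cut site differed by 0.0370 (5 minus 1), 0.0134 (7 minus 1), 0.0236 (5 minus 7) and -0.0531 (3 clusters minus others). With means, the clusters minus the others gave -0.0342 in nucleosome signal and 841.3 cut sites. Within the 10th to 90th percentile of cut sites they gave 886.5 cut sites and -0.0442 in gene activity per cut site, and cluster 7 held 16.3% of the library. Within depth ranges the last difference was -0.0410. The share of cluster 1 cells with most neighbours in their own cluster was 86.4% with 10 neighbours, 89.4% with 100 and 86.0% in libraries of equal size, where that of cluster 7 was 64.1%. Differences near 0 changed sign: cut sites of cluster 5 minus cluster 1 were -176.8 with means, TSS enrichment of cluster 7 minus cluster 1 was -0.00718 within the depth percentiles, and that of the 3 clusters minus the others was -0.00120 at first and 0.00543 without cluster 15. The causes were not tested. The 63 barcode calls limit every statement on lineages.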

Other observations

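A small tail of cells with many activity counts per cut site was present in all 3 clusters. Above 1.2 activity counts per cut site, a limit chosen after the values were seen, were 62 cluster 1 cells (1.04%, 0.795 to 1.33), 38 cluster 5 cells (1.32%, 0.938 to 1.81) and 21 cluster 7 cells (0.801%, 0.497 to 1.22), against 1.98% of the other eribulin scATAC cells and 0.534% of untreated scATAC cells. These cells had low nucleosome signal, with medians of 0.586, 0.596 and 0.577 in clusters 1, 5 and 7, and low TSS enrichment, with medians of 3.73, 3.61 and 4.12. Cluster 5 cells of this tail thus lacked the higher nucleosome signal of their cluster. The tail of the other eribulin scATAC cells was alike, with medians of 0.615 in nucleosome signal and 3.96 in TSS enrichment. In the untreated scATAC library these medians were 0.914 and 4.72. Of the eribulin multiome cells 2.45% were above the limit, with medians of 0.668 and 4.92, near those of that whole library (0.668 and 5.065). The highest value was 2.395 activity counts per cut site, in cluster 5. What sets these cells apart was not tested.

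Within each cluster gene activity per cut site fell as TSS enrichment rose. Spearman's rho was -0.187 over 5986 cells in cluster 1, -0.344 over 2873 in cluster 5 and -0.207 over 2621 in cluster 7, where the points share 1 library and both measures come from the same reads. With nucleosome signal rho was 0.230 in cluster 1 and 0.232 in cluster 7, and 0.0659 in cluster 5.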
